A study of Homo sapiens with 30 samples.

Results

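The genes described here are the protein-coding human genes whose symbol is ZNF followed by digits and whose mean normalised count was at least 200 over the 5 HCT116 libraries at pH 7.4. HCT116 is a colon carcinoma line. Of the 38122 genes measured, 446 carried such a symbol and 240 of them reached that level, 86 on chromosome 19 and 154 elsewhere. The set had been put forward as zinc finger genes silenced in HCT116 at low pH, and the values went against that name for the set as a whole: 4 of the 240 were at least 4-fold lower at pH 6.5, and 227 lay within 2-fold of their level at pH 7.4.

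RNA was sequenced from HCT116 and from a pair of squamous carcinoma lines, SiHa of the cervix and FaDu of the hypopharynx. Each of these 3 established lines gave 5 libraries from cells held at pH 6.5 for 1 month or longer and 5 from cells at pH 7.4. All groups shared DMEM with serum, 10 mM glucose, 2 mM glutamine and, as buffers, HEPES at 25 mM together with 25 mM of PIPES. The labels do not state that the libraries of 1 group are separate cultures, so each p-value speaks of the spread between libraries only, and this may be technical.

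The members were chosen by symbol, and most genes with such symbols, though not all, code for C2H2 zinc finger proteins. In these, an array of short zinc-binding fingers reads DNA sequence. Many, above all those in the gene clusters of chromosome 19, also carry a KRAB domain, which binds the corepressor TRIM28 (KAP1). TRIM28 brings the H3K9 methyltransferase SETDB1 and HP1 proteins to the bound site, and transposable elements are the best known targets of this silencing. Many of the genes are close relatives of each other and share sequence. How reads that match several of them were counted is not given in the sources used here, so each level is uncertain to that extent.

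Not every library carried the line of its label. Genes restricted to 1 line (33 for HCT116, 28 for SiHa and 24 for FaDu) were compared with their level in that line's own libraries, and the percentages that follow are medians over these genes. In the libraries labelled HCT116 pH 6.5, SiHa genes reached 35.9% of their SiHa level in replicate 5, 103% in replicate 6 and 100% in replicate 7, while HCT116 genes stood at 49.95%, 1.76% and 0.501%. HCT116 at pH 6.5 is therefore given by replicates 1 and 3, where SiHa genes were at or under 0.0533%. In the libraries labelled FaDu pH 7.4, HCT116 genes reached 77.5%, 28.2%, 39.9% and 58.1% in replicates 2 to 5, which leaves replicate 1 as the FaDu library at pH 7.4. In SiHa libraries at pH 7.4 the medians for the other lines were at most 0.0419%, but replicates 6 and 7 held 2817 and 2863 normalised counts of VIM, the mesenchymal filament vimentin, against at most 165 in the other 8 SiHa libraries, and results in SiHa are also given without them. Libraries held 21.0 to 55.7 M reads, and where a gene has no reads its level may still be as high as 3 reads, which is 1.90 to 5.01 normalised counts. Of 10 colon epithelium markers, CDX1 and LGALS4 were under 10 in every HCT116 library at pH 7.4.

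The promoters of the 4 members that were at least 4-fold lower in HCT116 at pH 6.5 are shown because these genes carry the difference, and those of ZNF616 and ZNF814 because they sit on the same chromosome at a like level and had log2 ratios near 0, at -0.07 and 0.01. Each runs 5′ to 3′ on the gene's own strand from 250 bases before the start of the gene to 50 bases after it, from RefSeq on GRCh38.p14, and capitals mark CG dinucleotides, the sites of DNA methylation. ZNF134 lies at chr19:57613992-57614291 on the plus strand, and the others on the minus strand: ZNF91 at chr19:23395422-23395721, ZNF607 at chr19:37719139-37719438, ZNF266 at chr19:9435524-9435823, ZNF616 at chr19:52139889-52140188 and ZNF814 at chr19:57888988-57889287.
ZNF134: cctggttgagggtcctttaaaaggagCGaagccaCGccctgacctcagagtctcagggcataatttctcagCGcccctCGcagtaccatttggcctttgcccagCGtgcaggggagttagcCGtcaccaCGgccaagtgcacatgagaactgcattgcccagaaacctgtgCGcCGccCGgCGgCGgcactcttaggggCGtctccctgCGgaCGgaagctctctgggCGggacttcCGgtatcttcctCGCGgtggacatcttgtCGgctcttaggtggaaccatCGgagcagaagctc
ZNF91: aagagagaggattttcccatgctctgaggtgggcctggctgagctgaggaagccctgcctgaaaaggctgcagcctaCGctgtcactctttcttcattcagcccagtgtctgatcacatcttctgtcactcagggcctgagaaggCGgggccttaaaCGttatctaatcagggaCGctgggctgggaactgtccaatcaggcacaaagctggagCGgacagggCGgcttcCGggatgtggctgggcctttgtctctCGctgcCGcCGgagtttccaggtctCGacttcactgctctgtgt
ZNF607: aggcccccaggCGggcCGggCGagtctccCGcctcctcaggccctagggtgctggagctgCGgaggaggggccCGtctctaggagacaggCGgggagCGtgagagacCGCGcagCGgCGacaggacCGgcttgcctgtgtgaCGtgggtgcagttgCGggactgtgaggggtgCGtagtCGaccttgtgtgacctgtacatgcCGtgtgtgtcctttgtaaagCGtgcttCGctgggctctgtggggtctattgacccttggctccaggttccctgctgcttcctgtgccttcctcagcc
ZNF266: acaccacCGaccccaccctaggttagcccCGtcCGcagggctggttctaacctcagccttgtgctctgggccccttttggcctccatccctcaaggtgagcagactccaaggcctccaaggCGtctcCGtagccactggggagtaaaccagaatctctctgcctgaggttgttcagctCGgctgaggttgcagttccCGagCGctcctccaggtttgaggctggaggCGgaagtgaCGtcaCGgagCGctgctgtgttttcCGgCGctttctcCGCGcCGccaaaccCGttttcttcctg
ZNF616: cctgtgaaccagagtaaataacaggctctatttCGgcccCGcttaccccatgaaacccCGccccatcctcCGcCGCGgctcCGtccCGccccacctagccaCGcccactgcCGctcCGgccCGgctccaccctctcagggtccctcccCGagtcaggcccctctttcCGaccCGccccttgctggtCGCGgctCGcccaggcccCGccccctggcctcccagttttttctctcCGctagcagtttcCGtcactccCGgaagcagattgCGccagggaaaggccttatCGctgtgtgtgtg
ZNF814: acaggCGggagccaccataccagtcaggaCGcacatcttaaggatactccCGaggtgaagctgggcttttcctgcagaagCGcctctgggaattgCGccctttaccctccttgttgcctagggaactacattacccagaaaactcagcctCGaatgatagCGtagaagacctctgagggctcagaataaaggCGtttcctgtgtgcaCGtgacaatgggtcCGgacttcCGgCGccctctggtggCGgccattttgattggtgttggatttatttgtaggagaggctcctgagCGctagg
The 4 promoters held 21 CG in ZNF134, 11 in ZNF91, 20 in ZNF607 and 18 in ZNF266, a median of 19. ZNF616 held 24 and ZNF814 held 14. The median was 24 over the 199 of 236 other members with a promoter in the table, 27 over 8378 other protein-coding genes at the same level of expression and 14 over all 27305 promoters. At least 10 CG stood in all 4 promoters, in 94.97% of those of the other members and in 97.22% of those on chromosome 19 among them. The share was 91.78% over the other protein-coding genes at the same level of expression and 56.0% over all promoters. The sequence CG reads the same on both strands, and its count is a description of these 300 bases. The deposited files hold no measure of methylation.

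In HCT116 the members kept their level as a group. The median log2 ratio of pH 6.5 over pH 7.4, each mean taken with 1 added, was -0.05 over the 240 members, with quartiles of -0.31 and 0.15, and -0.04 over the 10125 other protein-coding genes at or above the same level. The members' counts summed to 197900 and 223373 in the pH 6.5 libraries, against 210661 to 236444 in the 5 pH 7.4 libraries. Since the members were chosen on these libraries, their HCT116 values are given without a test. In these bulk libraries, fewer cells with a transcript and less of it per cell cannot be told apart.

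The 4 members at least 4-fold lower made up 1.67% of the 240, where 0.945% of the 10365 protein-coding genes with a mean of at least 200 were that much lower. No member was at least 4-fold higher, where 0.367% of those genes were. The requirement of a high level at pH 7.4 admits falls more readily than rises. Turned round to a mean of at least 200 at pH 6.5, it took 233 ZNF genes, of which 0 were at least 4-fold higher and 0 at least 4-fold lower, where 0.992% and 0.347% of all protein-coding genes at that level were. At 2-fold, 12 of the 240 members were lower (5.00%) and 1 was higher (0.417%), where 3.75% and 1.92% of the protein-coding genes with a mean of at least 200 at pH 7.4 were.

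**Figure D1:**
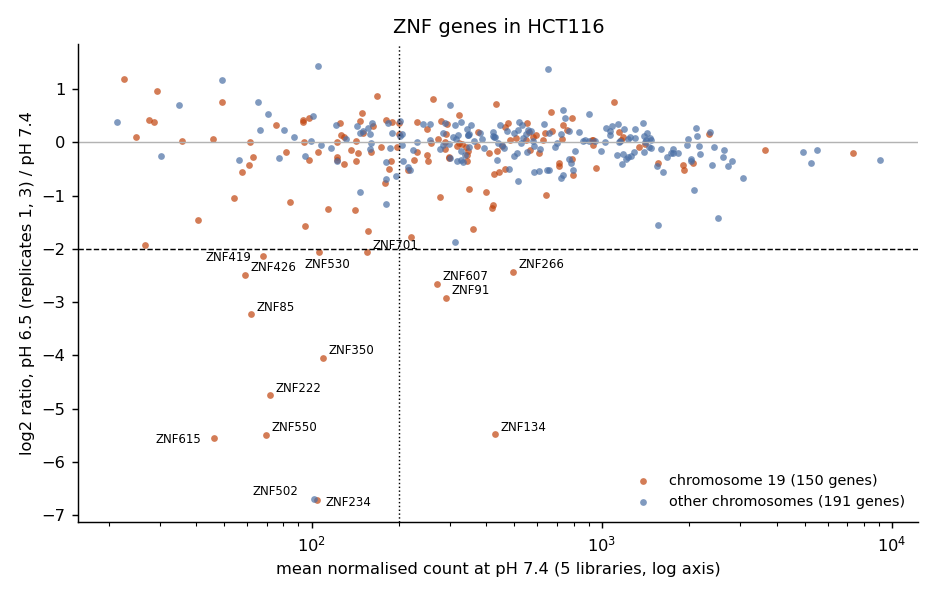
Each point is 1 of the 341 ZNF genes with a mean of at least 20 normalised counts in HCT116 at pH 7.4, placed by that mean (log axis) and by the log2 ratio of pH 6.5 (replicates 1 and 3) over pH 7.4. The dotted line marks a mean of 200 and the dashed line a 4-fold fall; ZNF234, ZNF502 and ZNF615 had no reads at pH 6.5 and are placed by the 1 added to the means. Most points lie near 0, 4 lie below the dashed line to the right of 200, and 11 lie below it to the left, with 14 of these 15 on chromosome 19.

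ZNF134 (ENSG00000213762) differed most. It had 10.3 and 6.84 normalised counts in HCT116 at pH 6.5, against 388, 481, 416, 443 and 409 at pH 7.4. The groups lay far apart and the 5 libraries at pH 7.4 were close to each other, and the log2 ratio was -5.48, or 44.8-fold lower. It was the only member whose mean at pH 6.5 was under 10.

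ZNF91 (ENSG00000167232) codes for a KRAB zinc finger protein known to repress SVA and L1 retrotransposons. It had 16.02 and 59.3 normalised counts at pH 6.5, against 194, 427, 315, 305 and 217 at pH 7.4. Both pH 6.5 libraries lay below all others, and replicate 1 lay well below replicate 3, with a log2 ratio of -2.92. ZNF134 and ZNF91 were the only 2 members at least 4-fold lower in each pH 6.5 library taken alone.

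ZNF607 (ENSG00000198182) had 67.5 and 17.1 normalised counts at pH 6.5, against 181, 316, 333, 313 and 210 at pH 7.4, a log2 ratio of -2.65. ZNF266 (ENSG00000174652) had 153 and 28.5 at pH 6.5, against 449, 429, 539, 515 and 535 at pH 7.4, a log2 ratio of -2.43. In both genes the 2 pH groups did not overlap, and replicate 3 was the lower pH 6.5 library. With replicate 1 alone the ratios were -1.99 for ZNF607 and -1.68 for ZNF266, so their place past the 4-fold line rests on replicate 3, which alone gave -3.91 and -4.07.

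**Figure D2:**
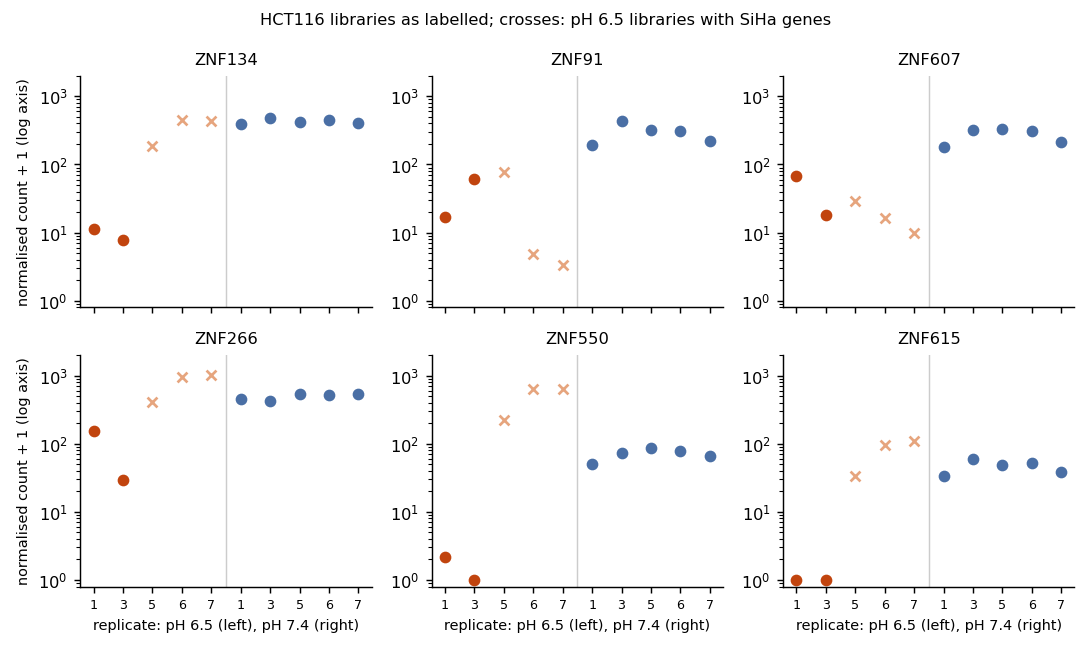
Normalised counts plus 1 (log axis) of ZNF134, ZNF91, ZNF607, ZNF266, ZNF550 and ZNF615 in every library labelled HCT116, with pH 6.5 on the left and pH 7.4 on the right of each panel. Filled red points are pH 6.5 replicates 1 and 3, blue points the 5 pH 7.4 libraries, and crosses the pH 6.5 libraries with SiHa genes. Replicates 1 and 3 lie below every pH 7.4 library in all 6 panels, while the crosses lie up to 642 for ZNF550, which SiHa cells express.

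Just short of the line were ZNF608 on chromosome 5 and ZNF211 on chromosome 19. ZNF608 had 125 and 45.6 normalised counts at pH 6.5, against 236 to 424 at pH 7.4 (median 266), a log2 ratio of -1.87. ZNF211 had 45.8 and 81.0, against 194 to 249 (median 222), a log2 ratio of -1.78. Neither gene's groups overlapped, and single libraries put them on either side of the line: ZNF608 stood at -2.75 with replicate 3 alone and -1.32 with replicate 1 alone, and ZNF211 at -1.43 and -2.24.

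The other members at least 2-fold lower were ZNF100, ZNF827, ZNF704, ZNF114, ZNF845 and ZNF417, with log2 ratios of -1.62, -1.55, -1.42, -1.23, -1.17 and -1.03. Single libraries decided some of these values: with replicate 1 alone ZNF100 stood at -2.40 and ZNF417 at -1.84, and with replicate 3 alone at -1.11 and -0.51, while ZNF845 stood at -1.42 and -0.96. ZNF827, which links the NuRD complex to telomeres, and ZNF704 are not on chromosome 19 and were the most abundant of them. ZNF827 had 534 and 532 normalised counts at pH 6.5, against 1358 to 1690 at pH 7.4. ZNF704 had 835 and 1041 at pH 6.5, against 2232 to 2616 at pH 7.4. In both of these genes the replicates of a group were close and the groups far apart. Both replicate 1 libraries were low for several members: ZNF845 had 158 and 218 at pH 6.5, against 210 in replicate 1 and 427 to 527 in the other libraries at pH 7.4, so that the groups overlapped.

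That shift of replicate 1 was seen over the whole set. The median log2 ratio of the members was -0.17 in pH 6.5 replicate 1 and 0.05 in replicate 3, and pH 7.4 replicate 1 lay at -0.19 against the other 4 pH 7.4 libraries, with 7 members at least 2-fold below them. The number of members at least 2-fold lower was 20 (8.33%) in pH 6.5 replicate 1 and 10 (4.17%) in replicate 3. Over the other protein-coding genes with a mean of at least 200 these shares were 4.30% and 4.71%, with median log2 ratios of -0.01 and -0.10. For pH 7.4 replicate 1 the 7 members were 2.92% of the 240, and no values over the other genes are given. Whether the shift of that library is particular to the members therefore cannot be told. The part of this shift in the single ratios was not tested.

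From the 13th to the 20th lowest the log2 ratio ran from -0.99 to -0.62. These were ZNF440, ZNF875, ZNF217, ZNF525, ZNF510, ZNF212, ZNF609 and ZNF462. ZNF510 stood at -1.62 with replicate 1 alone and -0.18 with replicate 3 alone, and ZNF440 at -1.58 and -0.57. ZNF217, a transcriptional coregulator amplified in several cancers, had 959 and 1267 normalised counts at pH 6.5, against 1665 to 2288 at pH 7.4, without overlap.

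At the other end stood ZNF503, a transcriptional repressor on chromosome 10 and the only member at least 2-fold higher. It had 2001 and 1408 normalised counts at pH 6.5, against 571 to 717 at pH 7.4 (median 669), a log2 ratio of 1.38. ZNF296, ZNF865, ZNF324 and ZNF783 followed with 0.81, 0.76, 0.72 and 0.70. ZNF296 overlapped, with 612 and 308 at pH 6.5, against 223 to 318 at pH 7.4 (log2 ratio 0.23 with replicate 3 alone), whereas ZNF865 had 2051 and 1671, against 1018 to 1256. Next to the limit of 200, ZNF79 and ZNF273 lay just above it, with means of 202 and 202 at pH 7.4, and ZNF77 and ZNF333 just below it and so outside the set, with 199.55 and 199 at pH 7.4. All 4 had log2 ratios between 0.12 and 0.41.

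By chromosome, 4 of the 86 members on chromosome 19 were at least 4-fold lower (4.65%), and 0 of the 154 on other chromosomes were. At 2-fold the counts were 9 of 86 (10.5%) and 3 of 154 (1.95%), where 2.75% of the other protein-coding genes of chromosome 19 and 3.79% of those of other chromosomes were lower. Of the other protein-coding genes of chromosome 19 at the same level, 2 of 618 were at least 4-fold lower (0.324%). Of the 20 lowest members, 12 were on chromosome 19. The median log2 ratios were close, at -0.07 on chromosome 19 and -0.02 elsewhere. No test was made of these shares, since the choice of members used the same values.

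Most ZNF genes with large falls lay under the level of 200. ZNF615 and ZNF550, both on chromosome 19 and put forward as examples, had means of 46.0 and 69.8 normalised counts in HCT116 at pH 7.4 and are therefore not among the 240. With a lower limit of 20, a setting chosen after the data were seen, 15 of 341 ZNF genes were at least 4-fold lower (4.40%) and 0 at least 4-fold higher, where 1.97% of all protein-coding genes at that level were lower and 0.814% higher. On chromosome 19 it was 14 of 150 and elsewhere 1 of 191, while 8 of the 798 other protein-coding genes of chromosome 19 were lower (1.00%). Among the 101 ZNF genes between 20 and 200 it was 11 (10.9%), where 6.41% of all protein-coding genes in that range were lower. Of these 11, 10 were among 64 genes on chromosome 19 (15.6%), where 6 of 180 other genes of that chromosome were lower (3.33%). Taking instead the 331 ZNF genes with a mean of at least 20 at pH 6.5, 1 was at least 4-fold higher and 5 were at least 4-fold lower (0.302% and 1.51%), where 1.51% and 0.808% of all protein-coding genes at that level were.

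ZNF615 (ENSG00000197619) had 0 reads in both pH 6.5 libraries, against 32.8, 59.3, 48.3, 51.6 and 37.8 normalised counts at pH 7.4, 222 reads in all. Set against 3 reads in each pH 6.5 library, that is at least 13.4-fold lower. ZNF550 (ENSG00000251369) had 1.14 and 0 normalised counts at pH 6.5, 1 read in all, against 49.8, 73.2, 84.6, 77.4 and 64.2 at pH 7.4. That read is 0.816% of the level at pH 7.4, with an exact 95% interval of 0.0206% to 4.58%. The interval is for the ratio of 2 Poisson counts, 1 and 334 reads. It covers counting error only, not the choice of the gene as an example. Both genes were thus near or at no reads in HCT116 at pH 6.5, and the log2 ratio depends there on the number added to the means. For ZNF550 it was -5.49 with 1 added, -6.04 with 0.5 and -2.92 with 10.

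ZNF234 on chromosome 19 and ZNF502 on chromosome 3 also had 0 reads in both pH 6.5 libraries. On the same basis of 3 reads in each library, ZNF234 with 94.3 to 112 normalised counts at pH 7.4 was at least 30.4-fold lower, and ZNF502 with 84.6 to 133 at least 29.8-fold lower. ZNF222 had 1.14 and 2.28 at pH 6.5, against 43.4 to 86.3 at pH 7.4. ZNF350, also known as ZBRK1 and a partner of BRCA1, had 9.16 and 2.28 at pH 6.5, against 90.6 to 129 at pH 7.4. The other 5 were ZNF85, ZNF426, ZNF419, ZNF530 and ZNF701, with log2 ratios of -3.23, -2.48, -2.13, -2.06 and -2.06.

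The genes at least 4-fold lower were spread over several clusters of chromosome 19, and near neighbours differed in some places and were lower too in others. Near ZNF222, at -4.75, ZNF230 and ZNF224 had log2 ratios of 0.02 and -0.42, while ZNF155 and ZNF221 had -1.93 and -1.11. ZNF234 lay between ZNF225 and ZNF226, which had log2 ratios of -0.35 and 0.29. ZNF615, with no reads at pH 6.5, and ZNF350, with a ratio of -4.04, are next to each other, and the genes on either side of the pair, ZNF613 and ZNF614, had -0.40 and -0.18. ZNF266 and ZNF426 have 1 gene between them, which was not expressed, and ZNF121 beside ZNF426 had -0.14. ZNF607 lay between ZFP30 at 0.05 and ZNF573 at -1.04, and ZNF91 between ZNF724 at -1.25 and ZNF675 at -0.76.

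The longest stretch of lowered genes, picked out after the values were seen, ran over 9 neighbouring genes from ZNF419 to ZNF211. Of these, 6 had a mean of at least 20 at pH 7.4, and all 6 were at least 2-fold lower, with the smallest fall in ZNF416 (log2 ratio -1.67). In order they were ZNF419, ZNF550, ZNF416, ZNF530, ZNF134 and ZNF211. ZNF416 had 52.7 and 44.5 normalised counts at pH 6.5, against 112 to 182 at pH 7.4, and ZNF530 had 24.0 and 25.1, against 87.9 to 122. Outside the stretch, ZNF749 had a log2 ratio of -0.27 and ZNF551 of -0.59.

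**Figure D3:**
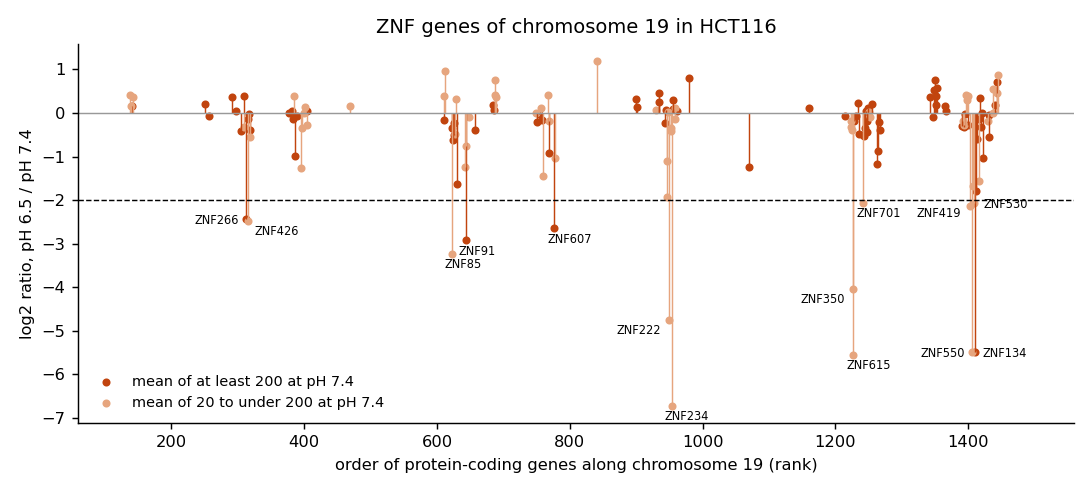
Log2 ratio of pH 6.5 (replicates 1 and 3) over pH 7.4 in HCT116 for the 150 ZNF genes of chromosome 19 with a mean of at least 20 at pH 7.4, in the order of protein-coding genes along the chromosome. Dark points are the 86 genes with a mean of at least 200, light points the rest, and the dashed line marks a 4-fold fall. The depth of the points for ZNF234 and ZNF615, which had no reads at pH 6.5, and for ZNF550, which had 1, is set by the 1 added to the means. The 14 named genes below the line stand in several separate clusters, with other ZNF genes near 0 in each.

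The library labelled HCT116 pH 6.5 replicate 5 had no part in choosing the members and held both lines. Its values were set beside 2 sums, one of 35.9% of the SiHa pH 6.5 level and 49.95% of the HCT116 pH 6.5 level, the other with the HCT116 pH 7.4 level in place of the pH 6.5 one. For 14 of the 15 ZNF genes that were at least 4-fold lower the measured value was nearer to the sum with pH 6.5, and for 13 of 15 on the log2 scale. The exceptions were ZNF550 on both scales and ZNF91 on the log2 scale. Both counts come from 15 genes in 1 library, and no such count over other genes is given. The genes were picked as low in replicates 1 and 3, whose mean also enters the sum with pH 6.5. The 2 shares fall short of the whole library, and the sums were not rescaled. The sums lay close for ZNF550, at 194.5 and 229.1, and for ZNF530, at 136.6 and 177.1. The counts therefore do not set these genes apart from others.

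The 4 genes with under 20 normalised counts in SiHa at pH 6.5 show most in that library. ZNF607 measured 28.6, against sums of 25.8 with the pH 6.5 level and 140 with the pH 7.4 level. ZNF350 measured 2.96, against 3.40 and 55.2. ZNF85 measured 4.93, against 2.90 and 30.9. All 3 values sat at the sum with the pH 6.5 level, while ZNF91, at 75.9 against 18.8 and 146, lay between its sums. ZNF134, which SiHa cells express, measured 186 against 172 and 381.

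**Figure D4:**
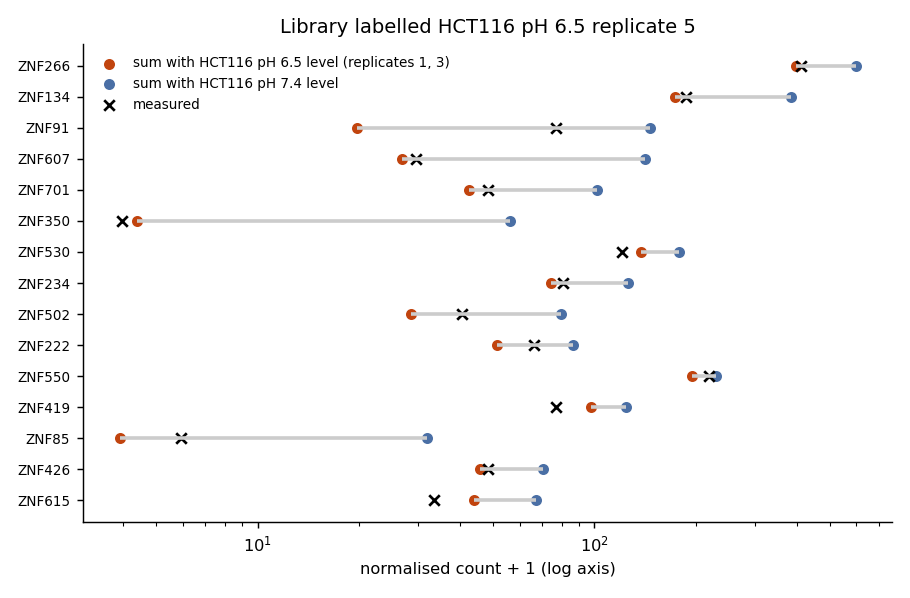
For the 15 ZNF genes at least 4-fold lower in HCT116 (mean of at least 20 at pH 7.4), crosses give the normalised count plus 1 (log axis) in the library labelled HCT116 pH 6.5 replicate 5. Red points are sums of the SiHa share with the HCT116 pH 6.5 level, and blue points sums with the HCT116 pH 7.4 level. Most crosses lie at or near the red points, and those of ZNF615, ZNF419, ZNF530 and ZNF350 lie below both.

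The same 240 genes were then tested in SiHa, which the choice of members did not use. All but 4 reached a mean of 10 in the higher group. At pH 6.5, 47 were higher and 39 lower (limma on log2 of the normalised count plus 1, adjusted p under 0.05 over 18834 genes), which is 19.6% and 16.2% of the 240, where 19.7% and 21.1% of all genes tested were higher and lower. The members' median log2 change was 0.04, against -0.02 over all genes. Without pH 7.4 replicates 6 and 7 the counts were 33 and 29, which is 13.8% and 12.1% of the 240. Of all genes, 15.0% and 16.2% were then called. On chromosome 19, 12 members were higher and 12 lower of 84 tested, and elsewhere 35 and 27 of 152. The share of members higher was thus near that of all genes, and the share lower was below it, with or without pH 7.4 replicates 6 and 7. All genes tested were of any type with a mean of at least 10, so they are not matched to the members in level. The difference in shares was not tested.

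None of the 4 genes lowered in HCT116 fell 4-fold in SiHa. ZNF266 went the other way: it had 1055, 942, 923, 950 and 999 normalised counts in SiHa at pH 6.5, against 737, 666, 668, 709 and 552 at pH 7.4. All pH 6.5 libraries lay above all pH 7.4 libraries, and the log2 change was 0.55 ± 0.09 (SE, limma adjusted p = 0.000639). ZNF134 averaged 468 ± 94.7 in SiHa at pH 6.5 and 611 ± 71.2 at pH 7.4 (SD, n = 5 each), with a log2 change of -0.40 ± 0.14 (limma adjusted p = 0.0371); without pH 7.4 replicates 6 and 7 the change was -0.37 and the limma adjusted p 0.119. ZNF607 averaged 12.9 ± 6.75 at pH 6.5 and 13.2 ± 7.65 at pH 7.4 (SD, n = 5 each), and its change of 0.02 ± 0.44 was not called (limma adjusted p = 0.973). ZNF91 had 0 counts in all 10 SiHa libraries.

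ZNF320 was the member with the largest rise in SiHa, at low levels throughout. It had 22.9, 15.4, 35.9, 9.48 and 8.54 normalised counts at pH 6.5, against 2.04, 5.68, 0, 0 and 0 at pH 7.4, so that the groups did not overlap and most pH 7.4 values lay at the limit of counting. The log2 change was 3.22 ± 0.62 (limma adjusted p = 0.00173), and HCT116 and FaDu held far more, with a mean of 1272 in HCT116 at pH 6.5. ZNF83, a neighbour of ZNF701 on chromosome 19, averaged 2694 ± 364 at pH 6.5 and 1297 ± 179 at pH 7.4 (SD, n = 5 each), a rise of 1.06 ± 0.12 (limma adjusted p = 4.63e-05). ZNF561, ZNF367 and ZNF704 rose by 0.90, 0.88 and 0.70 (limma adjusted p = 0.0207, 0.0206 and 0.0387). ZNF561 lost the call without pH 6.5 replicate 4 (0.77) and ZNF367 without pH 6.5 replicate 7 (0.73). ZNF704 averaged 635 ± 263 at pH 6.5 and 376 ± 95.2 at pH 7.4 (SD, n = 5 each), and lost the call without pH 6.5 replicate 4, 6 or 7 or pH 7.4 replicate 1, 4 or 5, with changes of 0.49 to 0.71. In HCT116 its level at pH 6.5 had been the lower one.

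Among members lower in SiHa at pH 6.5, ZNF620 had 43.1, 18.2, 35.9, 24.1 and 12.8 normalised counts, against 82.5, 69.2, 66.6, 67.9 and 80.1 at pH 7.4. The groups did not overlap, and the change was -1.53 ± 0.29 (limma adjusted p = 0.00155). ZNF516, ZNF480, ZNF503 and ZNF580 fell by 1.23, 1.23, 1.12 and 0.99 on the log2 scale (limma adjusted p = 0.00237, 0.00194, 0.00121 and 0.000352). ZNF503 averaged 170 ± 55.6 at pH 6.5 and 359 ± 55.5 at pH 7.4 (SD, n = 5 each), where in HCT116 it was the member with the largest rise. ZNF608 had 2.70, 0, 0.896, 0 and 0 in SiHa at pH 6.5, against 0, 0, 3.38, 38.6 and 60.1 at pH 7.4. Its counts above the limit of counting sat in the 2 SiHa libraries with high VIM, and its change was not called (limma adjusted p = 0.153).

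**Figure D5:**
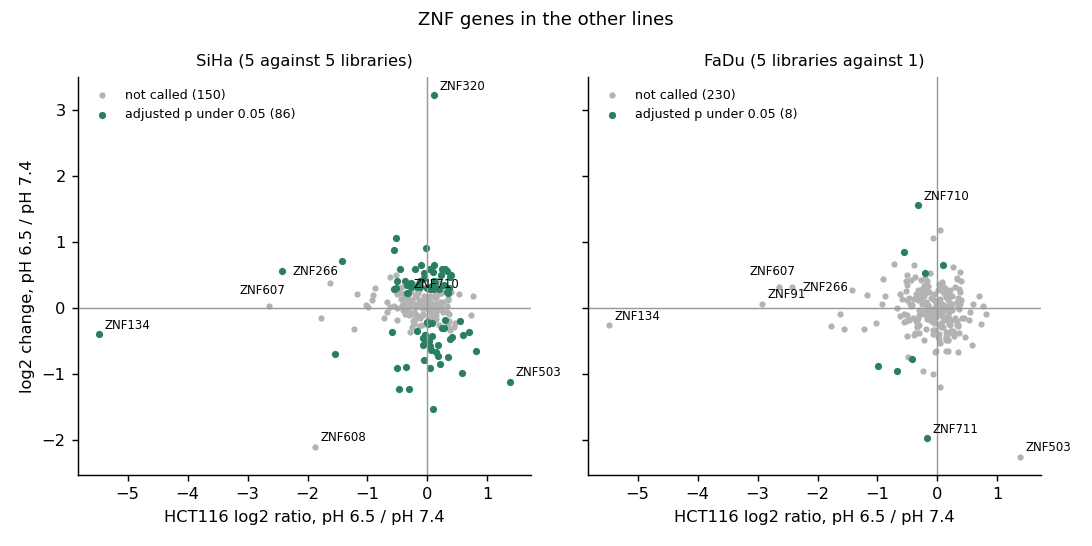
Each point is a member, placed by its log2 ratio of pH 6.5 over pH 7.4 in HCT116 (horizontal axis) and by its limma log2 change in SiHa (left) or FaDu (right). Green points had an adjusted p under 0.05, 86 in SiHa and 8 in FaDu. Of the members at least 4-fold lower in HCT116, ZNF134, ZNF607 and ZNF266 lie at -0.40, 0.02 and 0.55 in SiHa, where ZNF91 has no counts and no point, and the 4 lie between -0.27 and 0.31 in FaDu.

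In FaDu the comparison set 5 pH 6.5 libraries against the single pH 7.4 library without HCT116 genes, which is assumed to vary like the others. Of the 238 members tested, 4 were higher and 4 lower at pH 6.5 (limma, adjusted p under 0.05 over 19170 genes), 1.67% of the 240 each way, where 4.24% and 3.12% of all genes were higher and lower. These counts rest on single libraries: without pH 6.5 replicate 1 they were 30 and 31, without replicate 2 they were 2 and 2, without replicate 5 they were 1 and 1, and without replicate 3 or 4 they were 0 and 0 by limma. At an unadjusted p under 0.05 the counts were 12 and 17 without replicate 3, and 12 and 16 without replicate 4. With all 5 pH 7.4 libraries as labelled, 55 members were higher and 55 lower, with 24.0% and 22.3% of all genes called. HCT116 genes in those libraries move with that comparison, and their part in it was not tested. For the counts with a pH 6.5 library left out no share over all genes is given. Those counts therefore do not set the members apart from all genes.

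The lowered HCT116 genes were expressed in FaDu, and none of the 4 was called there. ZNF134 had 787, 831, 935, 856 and 854 normalised counts at pH 6.5, against 1024 at pH 7.4 (log2 change -0.27 ± 0.14, limma adjusted p = 0.25). ZNF91 had 949, 1148, 1003, 974 and 1209 at pH 6.5, against 1008 at pH 7.4 (0.06 ± 0.17, limma adjusted p = 0.843). ZNF607 averaged 275 ± 11.9 at pH 6.5 (SD, n = 5), against 222 at pH 7.4, and ZNF266 averaged 1072 ± 115, against 858, both with a change of 0.31 (limma adjusted p = 0.257 and 0.28). FaDu at pH 6.5 thus held all 4 genes at levels seen in HCT116 at pH 7.4 or above them.

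The members called in FaDu were other genes. ZNF710 had 1847, 3106, 2368, 2404 and 2724 normalised counts at pH 6.5, against 835 at pH 7.4, a rise of 1.55 ± 0.25 (limma adjusted p = 0.0198). ZNF711, an X-linked gene whose protein works with the histone demethylase PHF8, had 183, 117, 122, 134 and 117 at pH 6.5, against 525 at pH 7.4, a fall of 1.98 on the log2 scale (SE 0.28, limma adjusted p = 0.0167). In both genes all 5 pH 6.5 libraries lay on 1 side of the pH 7.4 library. ZNF367, ZNF672 and ZNF146 rose by 0.84, 0.65 and 0.52 (limma adjusted p = 0.0226, 0.0265 and 0.0475), and ZNF609, ZNF440 and ZNF770 fell by 0.96, 0.88 and 0.78 (limma adjusted p = 0.0308, 0.0266 and 0.0263). ZNF367 and ZNF672 were also called higher in SiHa. Each of the 8 lost its call without at least 2 of the pH 6.5 libraries taken out singly. ZNF503 averaged 180 ± 139 at pH 6.5 (SD, n = 5), against 734 at pH 7.4, and was not called (log2 change -2.26 ± 0.70, limma adjusted p = 0.0902).

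Across the lines the members stood at like levels. The median of their mean normalised counts was 565 in HCT116 at pH 6.5 and 585 at pH 7.4, 592 in SiHa at pH 6.5 and 605 at pH 7.4, and 596 in FaDu at pH 6.5 and 626 at pH 7.4. A few were nearly unexpressed in another line: ZNF160, ZNF215, ZNF608, ZNF711 and ZNF91 averaged under 10 in SiHa at pH 6.5, and ZNF215 and ZNF608 in FaDu. ZNF91 ranged most among the 4 lowered genes, with means of 37.7 in HCT116 at pH 6.5, 291 in HCT116 at pH 7.4, 0 in SiHa and 1057 in FaDu at pH 6.5. ZNF615 and ZNF550 were expressed in the other lines as well, with 91.6 to 161 and 360 to 659 in SiHa at pH 6.5 and 257 to 323 and 426 to 535 in FaDu at pH 6.5.

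Genes of KRAB zinc finger silencing and of other gene silencing were examined in HCT116, together with lists of other zinc finger families. The pooled counts that follow cover both kinds of list, and the ZBTB genes alone gave 4 of the higher and 7 of the lower calls. Over 9 lists of silencing cofactors and of other zinc finger families, 10 of 157 tested genes were higher and 21 lower at pH 6.5 (limma, adjusted p under 0.05 over 18885 genes), where 9.11% and 11.1% of all genes were. Without pH 6.5 replicate 1 the counts were 6 and 11, and without pH 7.4 replicate 1 they were 18 and 25. TRIM28 itself had 27944 and 19036 normalised counts at pH 6.5, against 18043 to 23575 at pH 7.4, and SETDB1 had 1150 and 1311, against 1060 to 1168. Neither was called, with log2 changes of 0.11 ± 0.16 and 0.13 ± 0.13 (limma adjusted p = 0.673 and 0.519).

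Of 13 genes of the TRIM28 complex, 1 was higher (CHD3, a NuRD helicase, by 0.44) and 2 were lower, the HP1 genes CBX5 and CBX1, by 0.72 and 0.59 on the log2 scale (limma adjusted p = 0.0288 for CHD3, 0.0161 for CBX5 and 0.00345 for CBX1). Of 12 H3K9 methyltransferases and demethylases, 0 were called by limma and 0 by edgeR, 1 was called by DESeq2, and 2 had an unadjusted p under 0.05 in limma, 1 in each direction. Of 8 genes of the HUSH complex and the MORC ATPases, 1 was higher, MORC4 by 0.80 (limma adjusted p = 0.00327).

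Of 13 genes of DNA methylation, 0 were higher and 5 lower in limma, edgeR and DESeq2 alike (0 and 6 at an unadjusted p under 0.05 in limma), and the list's median log2 change was -0.32. DNMT3B, a de novo DNA methyltransferase, had 466 and 386 normalised counts at pH 6.5, against 982 to 1709 at pH 7.4. The groups lay well apart, with a change of -1.65 ± 0.20 (limma adjusted p = 0.000168). TET3 and TET1, which oxidise methylcytosine, and the glycosylase MBD4 fell by 0.95, 0.81 and 0.80 (limma adjusted p = 0.00104, 0.0312 and 0.00252). DNMT1, the maintenance methyltransferase, was not called, at -0.29 ± 0.15 (limma adjusted p = 0.204). Among the Polycomb genes, CBX8 was higher by 0.71 and BMI1 lower by 0.68 on the log2 scale (limma adjusted p = 0.00671 for CBX8 and 0.0187 for BMI1).

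Other zinc finger families moved in single genes too. Of 12 ZFP genes tested, ZFP42 (REX1), a marker of pluripotent cells, was lower, with 1.7 normalised counts at pH 6.5 and 256 at pH 7.4 (means; log2 change -6.40 ± 0.49, limma adjusted p = 4.03e-06), and 0 were higher in limma, edgeR or DESeq2 or at an unadjusted p under 0.05. Of 40 ZBTB genes, 4 were higher and 7 lower, among them ZBTB20 at -1.48 (limma adjusted p = 0.00042). Of 21 ZSCAN and ZKSCAN genes, 0 were higher in limma (1 in edgeR, 0 in DESeq2 and 1 at an unadjusted p under 0.05) and 1 was lower, ZSCAN31 at -0.94 (limma adjusted p = 0.0255). Of 22 KLF and SP factors, 2 were higher and 4 lower, among them SP5, a Wnt target, at 3.37 ± 0.27 and KLF8 at -1.50 ± 0.29 (limma adjusted p = 6.38e-06 and 0.00364).

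The genes whose level was most like the mean log2 profile of the 4 lowered members, over the 7 HCT116 libraries and the SiHa and FaDu libraries at pH 6.5, were RARG, ELF1, C1orf116 and ZNF212 with a Pearson r of 0.96 and RBM15 with 0.95. These 17 libraries fall into lines and pH groups, so the r describes that shared order only. C1orf116 averaged 119 normalised counts in HCT116 at pH 6.5, 720 in HCT116 at pH 7.4, 57.1 in SiHa and 1619 in FaDu at pH 6.5. ZNF212, a member on chromosome 7, averaged 456, 724, 536 and 982 in the same order.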

How the data were processed

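Per the submitters' processing notes, reads were handled with bcl2fastq 2.20, FastQC, Trimmomatic 0.38, STAR 2.6.1d and DESeq2 1.22.2 on GRCh37; no source used here gives how reads were counted, or the strand setting and annotation. The deposited signal values are normalised counts for 38122 Ensembl genes in 30 libraries: within each library all values (100%) were whole multiples of 1 step, to within 0.01, and division by it gave back the reads.

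Symbols, gene types and chromosomes came from RefSeq tables on GRCh38.p14, which matched 35466 identifiers. The members and gene lists were chosen with earlier results of these data known, and the symbol pattern of the KLF and SP list was corrected afterwards to leave out SP100-type genes. In HCT116 the members' ratio of means plus 1 is described without a test. In SiHa, FaDu and the regulator lists, limma 3.58.1 with an intensity trend (R 4.3.3) was fitted to log2 of the value plus 1 over all genes whose mean reached 10 in either pH group, 2-sided, with Benjamini-Hochberg adjustment; fold changes on this scale understate changes of low genes. The text names the 20 lowest and 5 highest members in HCT116, those next to each limit, the 5 largest called changes each way in SiHa and FaDu, and up to 4 called genes per list; 1 gene that this rule names is not reported here. edgeR 4.0.16 quasi-likelihood tests and DESeq2 1.42.0 on the recovered reads, other limits, left-out libraries and a replicate block were the alternatives. The limma fit was tested on simulated data. Intervals and floors cover counting error only, as reads with no molecular identifier are not separate molecules.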

Additional observations from a re-analysis of the deposited data

Results flagged for a closer look

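Some members lay on opposite sides of their pH 7.4 libraries in SiHa and in HCT116 at pH 6.5, and the difference between the lines was not tested. ZNF266 lay 0.55 higher on the log2 scale in SiHa, with every pH 6.5 library above every pH 7.4 library, while both HCT116 libraries at pH 6.5 lay below all at pH 7.4. ZNF503 had a log2 ratio of means of -1.08 in SiHa, with every pH 6.5 library lower, and of 1.38 in HCT116. ZNF620 had -1.42 in SiHa, with every pH 6.5 library lower, and in HCT116 only 0.10: both HCT116 libraries at pH 6.5, at 431 and 480 normalised counts, lay above all at pH 7.4, at 424 to 430, replicate 1 by little.

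In FaDu at pH 6.5, replicate 1 stood apart from the other 4 libraries for ZNF503 (429 normalised counts, against 104 to 129), ZNF516 (795, against 1010 to 1048) and ZNF711 (183, against 117 to 134). Of 60 sets of 5 libraries examined these 3 stood out, about as many as chance alone would mark at 1 in 20. All 3 are the same library. Without it the FaDu counts of 4 higher and 4 lower members were 30 and 31, and its part in them was not tested.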

How the results depend on the processing

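The count of 4 members at least 4-fold lower in HCT116 was 9 of 298 at a mean of at least 100 (3.02%). It was 14 of 326 at 50 (4.29%) and 15 of 341 at 20 (4.40%). Of the other protein-coding genes at those levels, 1.23%, 1.58% and 1.91% were at least 4-fold lower. At a mean of at least 400 the count was 2. At a mean of at least 200 it was 12 at 2-fold and 1 at 8-fold, and ran from 4 to 5 with 1 library left out. No share over all genes is given for the limit of 400 or for 8-fold. With all 5 pH 6.5 libraries as labelled it was 3, and the genes changed: ZNF91 (-3.17), ZNF607 (-3.25) and ZNF608 (-2.98), without ZNF134 (-0.97) and ZNF266. In SiHa at pH 6.5 those 3 genes averaged 0, 12.9 and 0.72 normalised counts. The limits of 20 and 50, and adding symbols that end in 1 letter, were chosen after seeing the data. With all 5 pH 6.5 libraries as labelled, the log2 ratios turned positive for ZNF266 (0.05), ZNF845 (0.27), ZNF417 (0.13), ZNF615 (0.04) and ZNF550 (2.09), and for ZNF875 (0.03) and ZNF510 (0.08); replicates 6 and 7 of that group hold SiHa genes at their full level.

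In SiHa the higher members numbered 33 to 55 and the lower ones 34 to 39 with 1 library left out. Under other tests, filters and pseudocounts they numbered 37 to 52 and 33 to 40. No share over all genes is given for these settings or for those in FaDu and the regulator genes below. The exception is FaDu with all libraries as labelled, whose shares stand above. In FaDu the counts of 4 and 4 were 10 and 10 by DESeq2, 55 and 55 with all libraries as labelled, and 0 to 30 higher and 0 to 31 lower with 1 library left out. The regulator genes in HCT116 ran from 6 to 18 higher and from 11 to 26 lower with 1 library left out.

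Replicate numbers were not taken to pair the samples in the main tests. Of 12 same-number correlations 3 were over 0.1, which does not settle whether the numbers pair. They were 0.18 and 0.06 in HCT116, -0.01 to 0.33 in SiHa and 0.05 to 0.08 in FaDu. With the replicate block the members numbered 53 higher and 41 lower in SiHa and 46 and 51 in FaDu with all libraries as labelled, and the regulator genes 9 and 14. No share over all genes is given for the replicate block. The own number gave the highest correlation in 8 of 12 pairs, as a hint from the data, not the design.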
